A study of Homo sapiens with 2 samples.

Results

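The genes described here carry out cholesterol synthesis, sterol uptake and transport, sterol efflux, the control of sterol regulatory element-binding proteins (SREBPs), and fatty acid synthesis. They were taken as a list of 33 genes, and each was represented by the probe set that names that gene alone and has the highest mean of both arrays. A probe set is a group of short probes on the array that together measure 1 transcript. Of the 33 genes, 31 had such a probe set. CYP51A1, the sterol 14-alpha-demethylase, was named only by 2 probe sets that carry another gene symbol as well, and FDFT1, the squalene synthase, was not analysed here. ABCA1 was measured but dim, so 30 genes were compared, out of 12841 compared among all 19775 measured genes. The 33 genes were 17 of cholesterol synthesis, 5 of SREBP control, 4 of uptake and intracellular sterol transport, 2 of efflux and 5 of fatty acid synthesis.

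The cells were HCT15, an established human colorectal adenocarcinoma line cultured in RPMI with serum. The knockout-labelled group received Cas9 directed at ARID3B, which encodes a DNA-binding protein with an AT-rich interaction domain, and the control group is described only as control. Each group had 1 array of total RNA, so no test was possible and every difference describes these 2 arrays. The labels do not say whether the edited cells were a clone or a pool, and the control carries no named guide.

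Each difference below subtracts the control value from the knockout-labelled value on the log2 scale, where 1 is 2-fold. A gene was compared when its higher value reached 4.59, the median of all probe sets other than array controls, called the floor. The median difference of all compared genes was 0.04. The scaled median absolute deviation of differences, taken over genes close in expression, was 0.255 to 0.437 by bin of mean expression and is called the local spread. ARID3B itself, in its 1 probe set, had 6.09 in knockout-labelled and 5.12 in control cells. Its transcript was thus 1.95-fold higher under the knockout label (0.97), 2.81 times its local spread of 0.344. It stood 159th from the highest among the 12841 compared genes. A transcript level alone cannot tell whether the gene was disrupted, and protein was not measured on these arrays. The poly-A spike-ins, which are bacterial transcripts usually mixed in before labelling, were lower on the knockout-labelled array in all 24 probe sets, by a mean of -1.19. Directions below are therefore relative to the other genes of the arrays. Of the 11 epithelial markers listed 10 were compared, and KRT20 was under the floor. Their median was 0.11, with 8 of 10 above 0, where 52.9% of all compared genes were. EPCAM was at 12.2 on both arrays, but CDX2 differed by 0.64, CLDN4 by 0.44 (0.06 in its other probe set), KRT19 by 0.27 and CDH1 by -0.45, each past its local spread. Their part in the results below was not tested. Of the 10 measured markers of leukocytes, fibroblasts and endothelium, 4 reached the floor, with differences of 0.03 to 0.25 in their brightest probe sets. These were CD14 (6.54 in knockout-labelled and 6.51 in control cells), CD3E (4.87 and 4.71), PECAM1 (5.73 and 5.55) and COL1A1 (7.12 and 6.87). The other COL1A1 probe set above the floor differed by -2.47. PTPRC, COL3A1 and CDH5 were at 2.72 or less on both arrays. COL1A2, PDGFRB and VWF were under the floor as well, at 3.82 to 4.47. In bulk RNA, fewer cells of a type and less RNA per cell cannot be told apart.

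Cells make cholesterol from acetyl units through mevalonate, farnesyl diphosphate, squalene and lanosterol. The transcription factor SREBP2 switches on this pathway and lipoprotein uptake when membrane sterol is low, and SREBP1 acts mainly on fatty acid genes. SCAP escorts the SREBPs from the endoplasmic reticulum, and the INSIG proteins hold SCAP back when sterol is plentiful. Excess sterol forms oxysterols, which activate the liver X receptors (LXRs) and so raise the exporters ABCA1 and ABCG1 and the ubiquitin ligase MYLIP. Intestinal epithelial cells both take up and make cholesterol.

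Cholesterol synthesis genes were mostly lower on the knockout-labelled array as deposited. Centring on the poly-A spike-ins adds 1.19 to every gene and put all 15 above 0, without changing the order of the genes. Of the 15, 9 were then at least 1.5-fold higher, as were 11548 of all 12841 compared genes. On the deposited scale 13 of the 15 compared genes lay below 0 (86.7%), where 45.1% of all compared genes did. Their median difference was -0.48, with a range from -1.16 to 0.31. At 1.5-fold 6 of the 15 were lower (40%), against a background of 10.5%, and at 2-fold 2 were lower (13.3%), against 3.79%. No synthesis gene was 1.5-fold higher, where 5.83% of all genes were. Lower by at least the local spread were 8 of the 15 (53.3%), and 18.4% of all compared genes were. With each gene taken as the mean of its probe sets, 3 of the 15 were 1.5-fold lower and 0 were 2-fold lower. Of all 11482 genes compared in that way, 1014 were 1.5-fold and 330 were 2-fold lower.

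**Figure D1:**
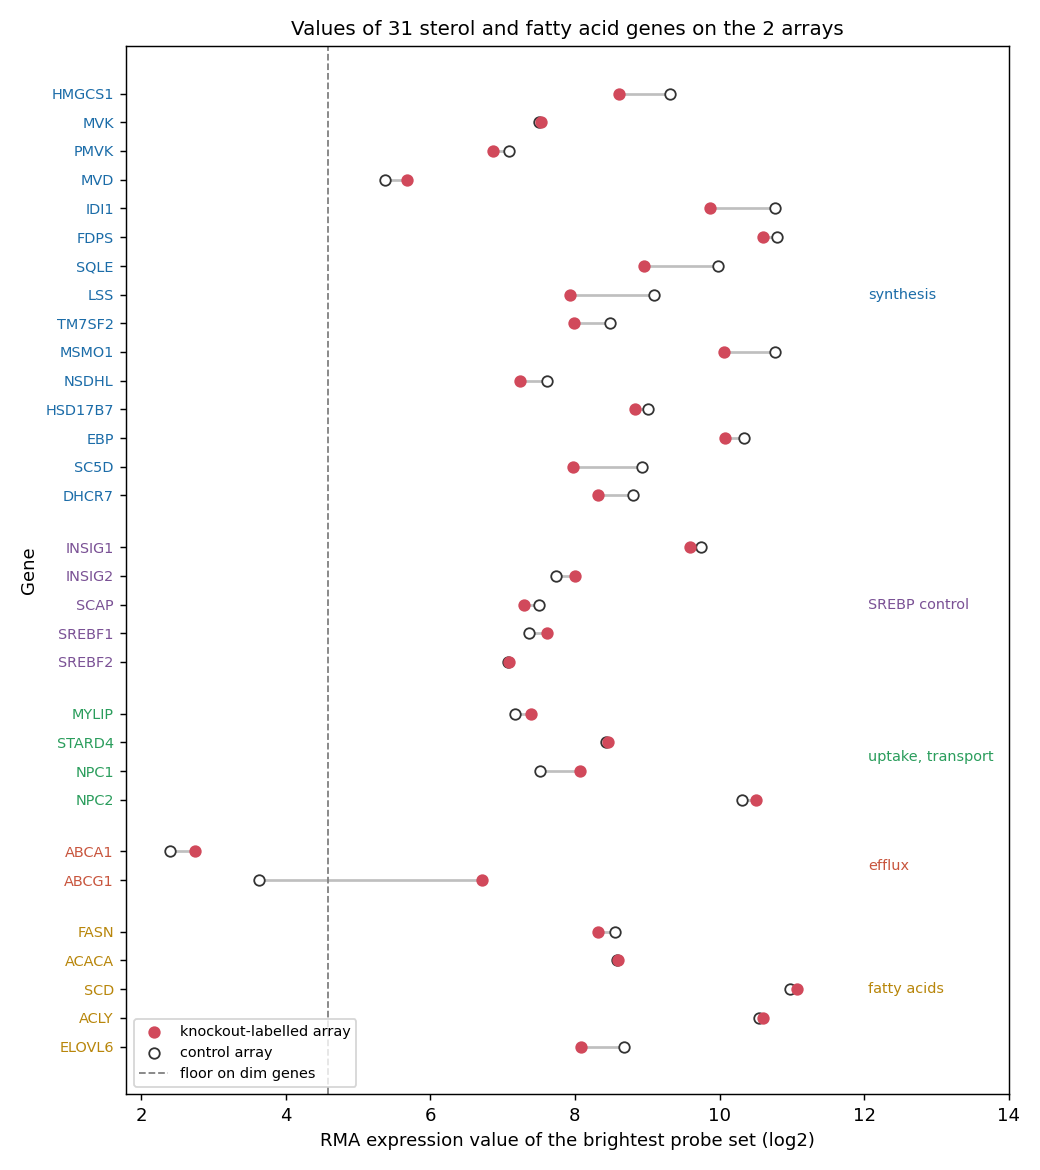
RMA values (log2) of the brightest probe set of the 31 measured genes, in rows by arm, with the knockout-labelled array as filled and the control array as open circles and the floor of 4.59 as a dashed line. Among synthesis genes the filled circle lies left of the open one except for MVK and MVD, and ABCG1 is the only gene whose 2 values lie on either side of the floor.

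The early enzymes, which lead from acetyl units to farnesyl diphosphate, were uneven. HMGCS1, the synthase that makes hydroxymethylglutaryl-CoA, had 8.60 on the knockout-labelled array and 9.31 on the control array. That difference of -0.71, or 1.63-fold lower, was larger than its local spread of 0.388, but its dimmer probe set differed by -0.25. IDI1, the isopentenyl diphosphate isomerase, had 9.87 on the knockout-labelled array, against 10.8 on the control array, -0.89 apart. Its 2 brightest probe sets gave -0.89 and -0.86. Both are marked as able to match other transcripts, as is another at -0.39, and the dim probe set without such a mark differed by -0.14.

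The kinases and the decarboxylase between these steps showed little difference. MVK, the mevalonate kinase, had 7.53 in knockout-labelled and 7.50 in control cells (0.03), and its other probe sets above the floor gave -0.28 and -0.13. PMVK, the phosphomevalonate kinase, had 6.87 on the knockout-labelled array, against 7.09 on the control array (-0.23). MVD, the diphosphomevalonate decarboxylase, had the highest difference of the synthesis genes, with 5.68 in knockout-labelled and 5.37 in control cells (0.31). FDPS, the farnesyl diphosphate synthase, had 10.6 on the knockout-labelled array, against 10.8 on the control array (-0.19). PMVK, MVD and FDPS differed by less than their local spreads of 0.437, 0.344 and 0.255. As a group the 6 early enzymes had a median of -0.21, with 4 of 6 below 0 (66.7%), where 45.1% of all compared genes were. The only probe sets of PMVK and MVD are marked as able to match other transcripts.

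The enzymes that turn squalene into cholesterol were all on the lower side. The 9 measured late enzymes lay between -1.16 and -0.18, with a median of -0.50. Of these, 6 were lower by at least their local spread (66.7%), where 18.4% of all compared genes were. The difference between the early and late enzymes was not tested.

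LSS, the lanosterol synthase that closes the ring system, had the lowest difference of the 30 genes, at 7.93 in knockout-labelled and 9.10 in control cells. It was 2.24-fold lower (-1.16) and stood 337th from the lowest among the 12841 genes. Its dimmer probe sets gave -0.89 and -0.37, so the direction was shared and the size was not. SQLE, the squalene epoxidase and a rate-limiting step of the late pathway, had 8.95 on the knockout-labelled array, against 9.98 on the control array. It was 2.04-fold lower (-1.03), and its other 3 probe sets gave -1.26, -0.99 and -0.47. SQLE was lower in all 4 probe sets, but that at -0.47 reached the floor only on the control array (5.01, against 4.53). Probe sets of 1 gene share the same RNA and are no replicates.

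SC5D, the sterol-C5-desaturase, had 7.98 in knockout-labelled and 8.93 in control cells, 1.93-fold lower (-0.95). MSMO1, the C4-methylsterol oxidase, had 10.1 on the knockout-labelled array, against 10.8 on the control array (-0.71). That was 2.77 times its local spread of 0.255, the lowest of any bin. Each of these 2 enzymes rested on 1 probe set above the floor, and that of SC5D is marked as able to match other transcripts.

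TM7SF2, a sterol C14-reductase, had 7.98 in knockout-labelled and 8.48 in control cells (-0.50). DHCR7, which makes the last reduction to cholesterol, had 8.32 on the knockout-labelled array, against 8.80 on the control array (-0.48), with -0.68 in its other probe set. NSDHL, a C4-decarboxylating dehydrogenase, had 7.24 in knockout-labelled and 7.62 in control cells (-0.37), with -0.54 in its other probe set. TM7SF2 and DHCR7 passed their local spread and NSDHL did not. All probe sets of TM7SF2 and DHCR7 are marked as able to match other transcripts. EBP, the sterol isomerase, had 10.1 on the knockout-labelled array, against 10.3 on the control array (-0.25), and its 4 probe sets ran from -0.33 to 0.05. HSD17B7, a C3-ketoreductase, differed by -0.18, with 8.83 in knockout-labelled and 9.02 in control cells, in a probe set marked as able to match other transcripts. Over all synthesis probe sets above the floor, 28 of 31 lay below 0 (90.3%), where 46.9% of all such probe sets did. They belong to the same 15 genes, so this share adds no independent support.

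**Figure D2:**
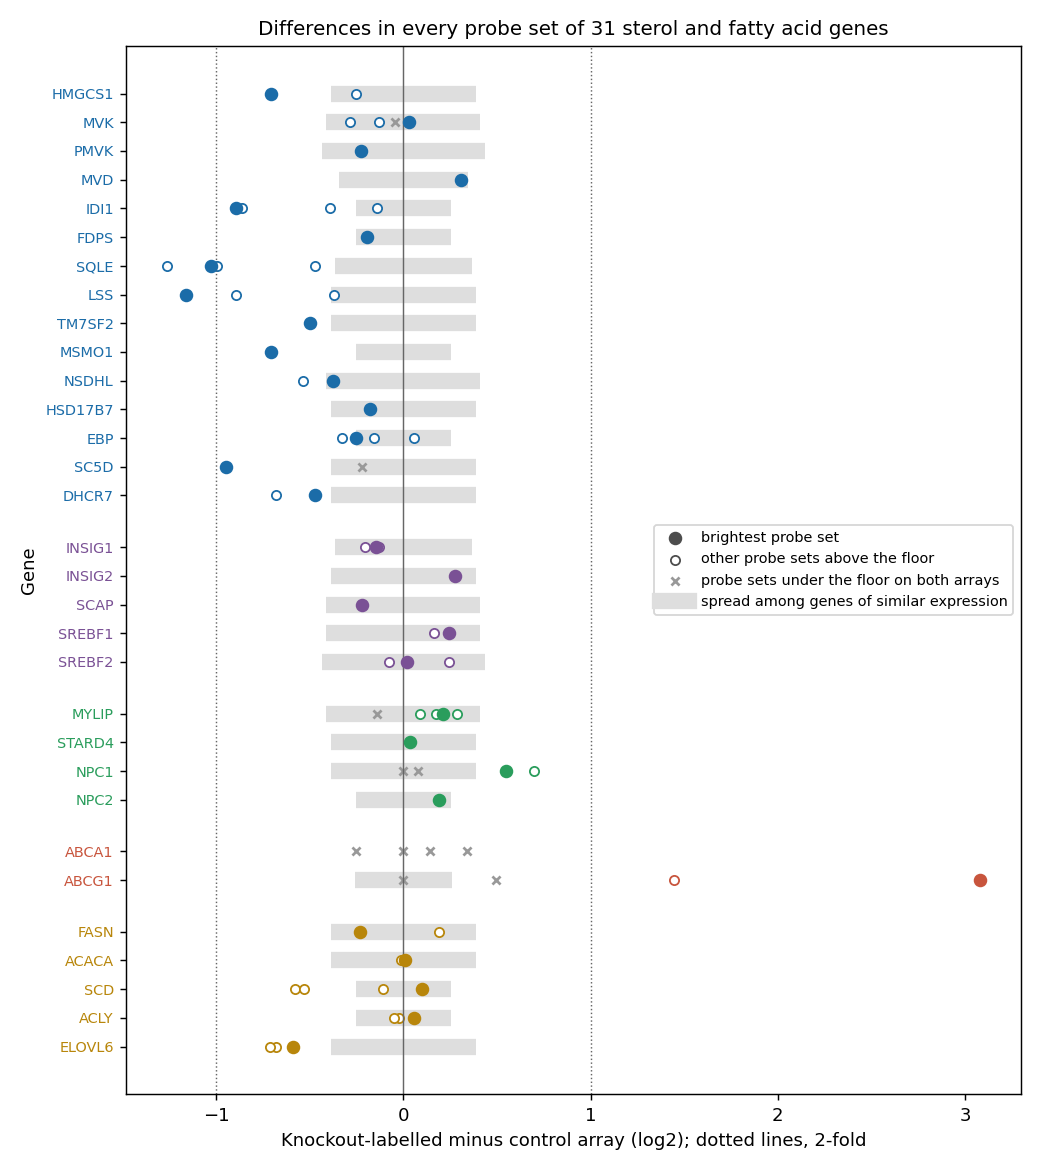
Difference of the knockout-labelled minus the control array (log2, as deposited) in every probe set of the measured genes, by arm from synthesis at the top to fatty acids at the bottom. Filled circles are the brightest probe sets, open circles the others above the floor and crosses those under it on both arrays, and grey bars reach 1 local spread to either side of 0. SQLE and LSS lie left of the bars in their brightest probe sets, SCD has probe sets on both sides of 0, and the 2 ABCG1 probe sets above the floor lie at 1.45 and 3.08.

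Promoters of synthesis genes were read because most of these genes differed in the same direction. The stretches shown are the 250 bases before the start site in RefSeq, build GRCh38.p14, for 4 genes that were at least 1.5-fold lower and, for contrast, MVD, the synthesis gene with the highest difference. LSS is on the minus strand at chr21:46228775-46229024, SC5D on the plus strand at chr11:121292521-121292770, HMGCS1 on the minus strand at chr5:43313413-43313662, MSMO1 on the plus strand at chr4:165327419-165327668 and MVD on the minus strand at chr16:88663092-88663341. SC5D and HMGCS1 have 2 listed starts, and the window shown lies before the outer of them. No other annotated gene overlaps these windows. They are written 5′ to 3′ on the strand of the gene. Capitals mark every match, on either strand, to CCAAT (the box bound by NF-Y, a partner of SREBPs), CACGTG (an E-box), GGGCGG (the GC box of SP1), and TCACCCC and CACCCCA, which are 2 overlapping stretches of the classical sterol regulatory element.
LSS: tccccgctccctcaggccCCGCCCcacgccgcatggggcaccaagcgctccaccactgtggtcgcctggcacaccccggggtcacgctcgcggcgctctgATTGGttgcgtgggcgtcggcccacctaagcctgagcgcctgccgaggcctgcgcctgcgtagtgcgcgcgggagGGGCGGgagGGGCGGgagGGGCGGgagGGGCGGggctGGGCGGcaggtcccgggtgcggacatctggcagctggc
SC5D: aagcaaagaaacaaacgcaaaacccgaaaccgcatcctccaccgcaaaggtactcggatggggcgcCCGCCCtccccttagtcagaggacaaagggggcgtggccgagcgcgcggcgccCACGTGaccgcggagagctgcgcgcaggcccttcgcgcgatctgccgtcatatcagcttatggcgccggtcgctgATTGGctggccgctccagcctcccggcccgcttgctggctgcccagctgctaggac
HMGCS1: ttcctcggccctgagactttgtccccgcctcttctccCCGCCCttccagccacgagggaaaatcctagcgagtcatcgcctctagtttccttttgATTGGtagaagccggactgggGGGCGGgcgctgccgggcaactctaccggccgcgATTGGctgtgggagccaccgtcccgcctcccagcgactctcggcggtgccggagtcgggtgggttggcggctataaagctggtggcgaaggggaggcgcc
MSMO1: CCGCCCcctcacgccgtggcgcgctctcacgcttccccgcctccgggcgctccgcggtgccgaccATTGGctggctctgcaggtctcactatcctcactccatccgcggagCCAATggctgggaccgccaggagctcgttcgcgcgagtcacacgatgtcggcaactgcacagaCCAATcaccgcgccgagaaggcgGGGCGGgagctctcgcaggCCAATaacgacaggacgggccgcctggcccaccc
MVD: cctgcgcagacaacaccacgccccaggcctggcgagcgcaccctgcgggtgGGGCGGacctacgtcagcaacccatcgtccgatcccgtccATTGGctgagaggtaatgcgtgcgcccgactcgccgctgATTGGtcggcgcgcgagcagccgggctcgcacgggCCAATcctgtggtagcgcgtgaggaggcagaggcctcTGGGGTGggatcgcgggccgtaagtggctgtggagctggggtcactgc

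The CCAAT letters (ATTGG when read from the other strand) occurred in all 5 windows shown, including that of MVD. They did not occur in the window of the other listed start of HMGCS1. IDI1, which was also 1.5-fold lower, had them before 2 of its 3 listed starts and not before the outermost. They began 139, 76, 34 and 185 bases before the start in MSMO1, 155 and 100 in HMGCS1, 56 in SC5D, 150 in LSS, and 85, 159 and 120 in MVD. LSS had 6 GC boxes, 5 of them between 75 and 38 bases before the start. MVD alone of the 5 held a CACCCCA match, and SC5D alone held an E-box. Over the 15 synthesis genes in the RefSeq promoter table, 13 (86.7%) had CCAAT before at least 1 listed start, as had 8 of the 14 other listed genes in that table (57.1%) and 41.2% of the 10373 compared genes in it. These 15 include CYP51A1, whose expression was not compared, and lack SQLE, which had no promoter entry. Counted by start, 15 of 20 synthesis windows held CCAAT (75%), against 52.6% of the windows of the other listed genes and 32.8% of those of compared genes. PMVK and CYP51A1 had none. GC boxes were found in 14 of the 15 synthesis genes and in 73.4% of the compared genes, CACCCCA in 3 and in 9.27%, TCACCCC in 1 and in 6.68%, and CACGTG in 1 and in 11.2%. The synthesis windows held a median of 66.8% C or G and those of compared genes 64.4%. MVK, with a difference of 0.03, also had CCAAT, as did MVD. A match describes the letters and not binding.

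The regulators that govern these enzymes differed little. SREBF2, which encodes SREBP2, had 7.09 on the knockout-labelled array, against 7.07 on the control array (0.02), and its 2 other probe sets gave 0.24 and -0.08. SREBF1, which encodes SREBP1, had 7.62 in knockout-labelled and 7.37 in control cells (0.25). Its dimmer probe set gave 0.16 and reached the floor only on the knockout-labelled array. SCAP had 7.29 on the knockout-labelled array, against 7.51 on the control array (-0.22). None of these 3 passed its local spread.

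INSIG1, itself a target of SREBPs, had 9.59 in knockout-labelled and 9.74 in control cells (-0.15), and its 3 probe sets ran from -0.21 to -0.13. INSIG2, which holds SCAP in the same way but is not driven by SREBPs in most cells, had 8.01 on the knockout-labelled array, against 7.73 on the control array (0.27). The median of the 5 regulators was 0.02, close to the 0.04 of all genes. Of the 5, 0 were 1.5-fold different in either direction, where 5.83% of all compared genes were higher and 10.5% lower. With so few genes, that count does not set the regulators apart from all genes.

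The 4 genes of uptake and intracellular transport lay above 0, with a median of 0.20, as did 52.9% of all compared genes. NPC1, the membrane protein that releases lipoprotein cholesterol from lysosomes, had 8.06 in knockout-labelled and 7.51 in control cells. It was 1.46-fold higher (0.55), above its local spread of 0.388. A second probe set gave 0.70 but reached the floor only on the knockout-labelled array (4.65, against 3.95), so it adds no support. The remaining ones, under the floor on both arrays, gave 0.08 and 0.00, and the mean of all 4 was 0.33. Its soluble partner NPC2 had 10.5 on the knockout-labelled array, against 10.3 on the control array (0.19). MYLIP, which marks lipoprotein receptors for degradation, had 7.39 in knockout-labelled and 7.17 in control cells (0.21), and its 5 probe sets above the floor ran from 0.09 to 0.29. STARD4, a soluble sterol carrier and a known SREBP target, had 8.46 on the knockout-labelled array, against 8.43 on the control array (0.04). STARD4 differed by -0.06 when the arrays were centred on ribosomal protein genes. NPC1 alone of the 4 was higher by at least its local spread (25%), where 16.4% of all compared genes were. None was 1.5-fold higher, where 5.83% of all compared genes were.

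ABCG1, an exporter of cholesterol to lipoprotein particles, was the most different of the 30 genes. Its brightest probe set had 6.71 in knockout-labelled and 3.63 in control cells, where it was under the floor. Set against the floor, this probe set was at least 4.36-fold higher, which is no bound for the gene. With 64 linear units added to both arrays, its difference was 1.14. The measured difference of 3.08 was taken against a value under the floor and is no measure of size. The next probe set had 5.72 on the knockout-labelled array, against 4.27 on the control array (1.45), also under the floor in the control. The remaining 2 were under the floor on both arrays, at 3.27 and 2.43 in knockout-labelled and 2.77 and 2.43 in control cells. Both bright probe sets are of the kind that can match several transcripts, so ABCG1 had no value once that kind was left out. As the mean of its 4 probe sets ABCG1 differed by 1.26 but fell under the floor. ABCG1 was compared only because its knockout-labelled value reached the floor, so it is not counted here against the 1.05% of all compared genes that were 2-fold higher. None of the other 29 genes was 2-fold higher.

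ABCA1, the exporter of cholesterol to lipid-poor apolipoproteins, lay under the floor in all 4 of its probe sets on each array. Its values ran from 1.90 to 2.75 in knockout-labelled and from 2.16 to 2.45 in control cells, so that it was too dim to be compared.

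Fatty acid synthesis genes had a median of 0.01. ACLY, the ATP citrate lyase that supplies cytosolic acetyl-CoA, had 10.6 on both arrays (0.06), and ACACA, the acetyl-CoA carboxylase, 8.59 in knockout-labelled and 8.58 in control cells (0.01). FASN, the fatty acid synthase, had 8.32 on the knockout-labelled array, against 8.56 on the control array (-0.23). Its dim second probe set differed by 0.19 and reached the floor only on the knockout-labelled array. These 3 did not pass their local spread.

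SCD, the stearoyl-CoA desaturase, depended on the probe set. The brightest had 11.08 in knockout-labelled and 10.98 in control cells (0.10), whereas the other 3 gave -0.11, -0.53 and -0.58 and the mean of all 4 was -0.28. ELOVL6, the elongase of C16 fatty acids, had 8.09 on the knockout-labelled array, against 8.68 on the control array. It was 1.504-fold lower (-0.59), just past that threshold, and its other probe sets gave -0.68 and -0.71. The last of these reached the floor only on the control array (4.66, against 3.95), so it adds no support. In all, 7 of the 30 genes were 1.5-fold lower (23.3%), 6 of them of cholesterol synthesis, where 10.5% of all compared genes were.

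**Figure D3:**
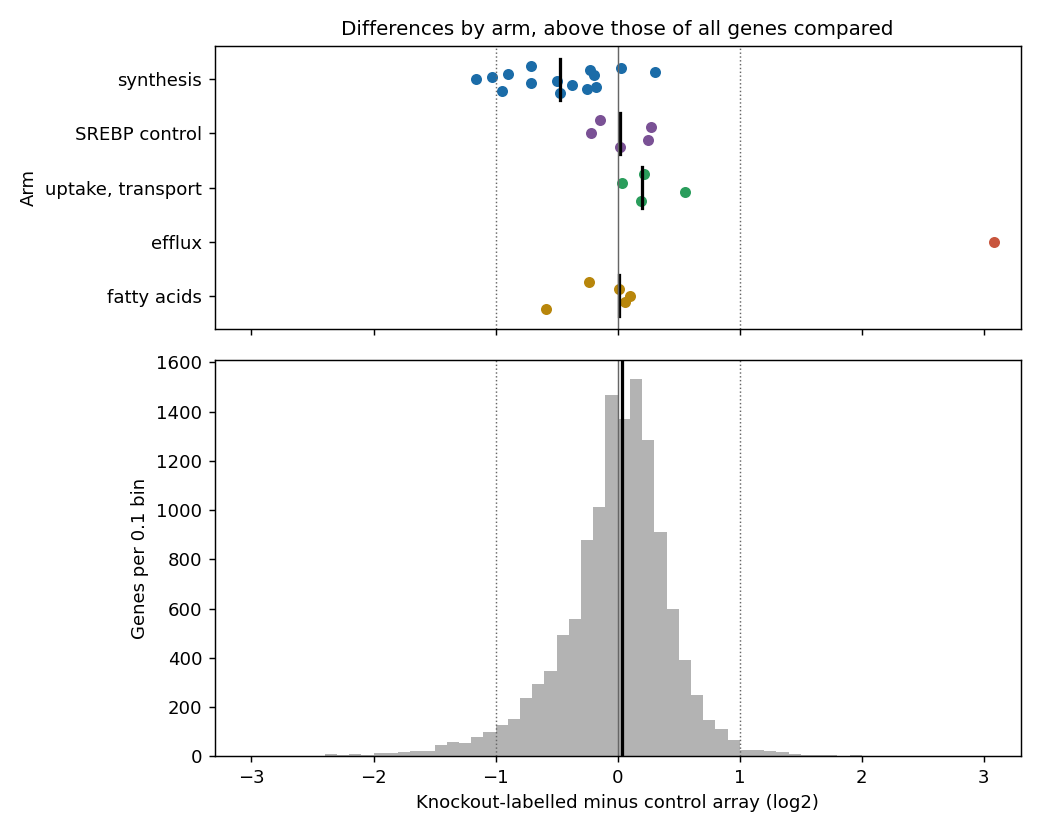
Differences of the 30 compared genes by arm (top, points with the arm's median as a bar where it has more than 1 gene) and of all 12841 compared genes (bottom, genes per bin of 0.1, median as a line), knockout-labelled minus control (log2, as deposited). The synthesis points centre on -0.48, those of SREBP control and fatty acids on 0.02 and 0.01, and ABCG1 lies alone at 3.08. The 18 genes beyond 3.3 in either direction are outside the plot.

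Other genes of the same pathways were set beside these. Of 12 further sterol and isoprenoid enzymes, 9 were compared, and all 9 lay below 0 on the deposited scale, where 45.1% of all compared genes did, with a median of -0.21. As everywhere here, the spike-in scale would add 1.19 to each value. ACAT2, the acetoacetyl-CoA thiolase of the first step, had 8.74 in knockout-labelled and 9.62 in control cells (-0.87). TMEM97, a sterol-regulated partner of NPC1, had 9.36 on the knockout-labelled array, against 10.2 on the control array (-0.85), and its 4 probe sets ran from -1.12 to -0.43. SOAT1, which esterifies cholesterol, differed by -0.46 and ERG28, a scaffold of the C4-demethylating enzymes, by -0.31. ACAT2 and TMEM97 were the 2 of 9 that were 1.5-fold lower (22.2%), where 10.5% of all compared genes were. Lower by at least the local spread were 3 of the 9 (33.3%), where 18.4% of all compared genes were. LBR, GGPS1, COQ2 and DHDDS lay between -0.09 and -0.05 in their brightest probe sets. The other probe set of DHDDS differed by 0.12 and that of COQ2 by -1.14.

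Genes that process SREBPs or degrade sterol-regulated proteins had a median of -0.04 over 12 compared genes, with 5 above and 7 below 0. SEC23A, a coat protein of vesicles that leave the endoplasmic reticulum, was highest at 0.60, and the coat protein SEC24C followed at 0.38. The site-2 protease MBTPS2 was lowest at -0.39, and SPRING1, a factor of SREBP processing, differed by -0.25. The 3 SPRING1 probe sets above the floor ran from -0.27 to 0.14. Of these 12 genes 1 was 1.5-fold higher (8.33%) and none was lower, where 5.83% of all compared genes were higher and 10.5% lower.

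Of 12 genes of LXRs, their partners and further targets, 6 were compared, with a median of 0.30. RXRA, the retinoid X receptor that pairs with LXRs, had 6.998 in knockout-labelled and 5.967 in control cells (1.03), but its other probe set differed by -0.98. RXRB had 8.31 on the knockout-labelled array, against 7.49 on the control array (0.82), and its 3 probe sets ran from -0.17 to 0.94. TTC39B differed by 0.38 and SMPDL3A, a phosphodiesterase induced by LXRs, by -0.26. The LXR targets PLTP, ABCG5 and ABCG8 were under the floor on both arrays.

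Further fatty acid genes had a median of 0.04 over 16 compared genes, of which 1 was 1.5-fold lower (6.25%), where 10.5% of all compared genes were. ACSL5, an acyl-CoA synthetase of the intestine, had 4.79 in knockout-labelled and 5.76 in control cells (-0.97), with -1.24 in its other probe set. SLC25A1, the mitochondrial citrate carrier, was higher by 0.55, the desaturase SCD5 by 0.46 and the malic enzyme ME1 by 0.44. Genes of triglyceride synthesis and lipid droplets had a median of -0.21 over 10. GPAM (-0.67) and LPIN1 (-0.64), which act in glycerolipid assembly, were lower, whereas the lipase PNPLA2 (0.46) and the droplet coat protein PLIN3 (0.43) were higher.

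Fatty acid oxidation genes had a median of 0.33 over 9, of which 1 was 1.5-fold higher (11.1%), where 5.83% of all compared genes were. ACADVL, the very long-chain acyl-CoA dehydrogenase, had 9.70 on the knockout-labelled array, against 8.96 on the control array (0.74). The receptor PPARA differed by 0.57, although its 6 probe sets ran from 0.00 to 0.57, and the trifunctional protein subunits HADHA and HADHB by 0.38 and 0.34. Endosomal and membrane sterol carriers had a median of 0.07 over 11. The oxysterol-binding protein OSBP was highest at 0.65, followed by its relatives OSBPL2 at 0.50 and OSBPL9 at 0.34, and by the lysosomal receptor SCARB2 at 0.31. The second OSBPL2 probe set differed by -0.04.

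**Figure D4:**
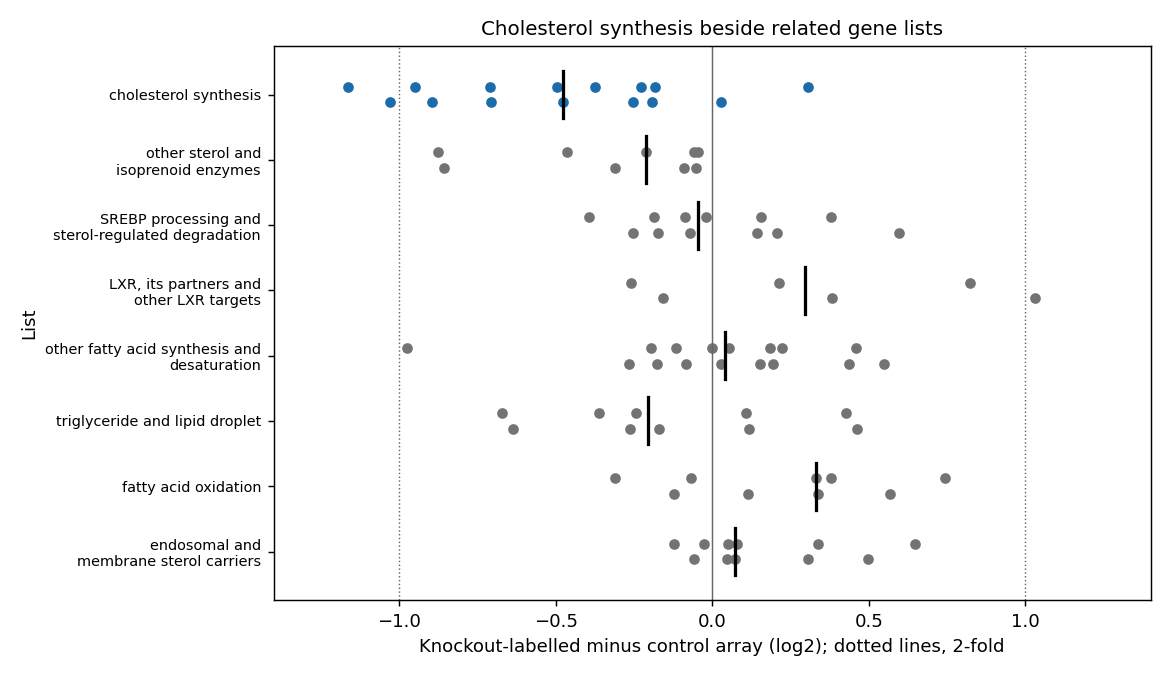
Differences (knockout-labelled minus control, log2, as deposited) of the 15 compared cholesterol synthesis genes in the top row and of 7 related lists below, 1 point a gene with the median as a bar. The medians are -0.48 for synthesis, -0.21 for further sterol enzymes, 0.30 for LXR genes and 0.33 for fatty acid oxidation, and the lists overlap in range.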

How the data were processed

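Total RNA of HCT15 cells was measured on 1 Affymetrix array per group. The authors deposited RMA values on the log2 scale, as named without a version by the submitters' processing notes. RMA subtracts background, gives arrays a common distribution and summarises probes per probe set. A difference is therefore relative to the other genes and can be understated for dim genes. The set of arrays normalised jointly was not stated in the sources used here.

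Of 54613 probe sets other than 62 array controls, 41091 were annotated with 1 gene, 1801 with several and 11721 with none, and only those with 1 gene were used. Symbols were checked by Entrez identifier against a RefSeq table of GRCh38.p14 (41037 found, none changed). With 1 array per group no test was run, no p-value is given, and precision is limited by how few arrays there are. Instead a difference was set beside the local spread in 10 bins of mean expression, beside the gene's other probe sets, and beside the share of all compared genes past 2-fold or 1.5-fold. The fold counts and the loess step were tested on simulated data.

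The genes and lists were chosen with earlier results of these data known, and the named genes of the further lists are up to 4 per list with the largest absolute difference above the floor. Some genes of the lists had no usable annotated probe set and were left out. The alternatives tried were dropping the floor, raising it to the 75th percentile, averaging all probe sets of a gene, omitting those marked s, x or a, loess (span 0.3), centring on array medians, on ribosomal protein genes or on poly-A spike-ins, and adding 64 linear units. Python 3.11.15 with pandas 2.3.3 and statsmodels 0.14.6 was used. Promoter sequences are from RefSeq, in which 29 of the 33 genes had an entry.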

Additional observations from a re-analysis of the deposited data

How the results depend on the processing

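No paired analysis was possible because each group has 1 array. A median counted as moved when it changed by more than 0.266, the scaled median absolute deviation of the gap between the 2 brightest probe sets of a gene, and a count when it changed by more than 1.5 times. No result moved after the loess trend was removed or the arrays were centred on their medians. Across the alternatives other than the poly-A spike-ins, the synthesis median ran from -0.57 to -0.41. Centred on the spike-ins, all differences were larger by 1.19 by construction. The median became 0.71 for synthesis (early 0.98, late 0.69), 1.204 for SREBP control, 1.39 for uptake and transport, 4.27 for ABCG1, 1.197 for fatty acid synthesis, 0.9996 for all 30 genes and 1.24 for those outside synthesis, with SQLE at 0.16 and LSS at 0.024. Of the 30 genes 15 were then 2-fold and 24 1.5-fold higher and 0 lower, of the synthesis genes 3 and 9 higher, 0 lower and 0 below 0, and of all genes 9137 and 11548 higher and 44 and 97 lower, against 135 and 749 higher and 487 and 1349 lower as deposited. With the mean of probe sets 0 of 29 genes were 2-fold different, 0 were 1.5-fold higher and 4 lower, 3 of them of synthesis, where 0 were 2-fold lower. Of all 11482 genes then compared, 83 and 495 were 2-fold and 1.5-fold higher and 330 and 1014 lower. Without probe sets marked as matching several, 20 genes had a value, 0 were 2-fold or 1.5-fold higher, 8 of 9 synthesis genes lay below 0, and the fatty acid median, over 2 genes, was -0.29. No floor put the efflux median at 1.71, over ABCA1 and ABCG1. The higher floor left 290 and 898 genes 2-fold and 1.5-fold lower, and ribosomal centring 489 genes 1.5-fold higher. With 64 units added ABCG1 differed by 1.14, 0 of the 30 and 0 synthesis genes were 2-fold lower, and of all genes 46 were 2-fold and 299 1.5-fold higher and 117 and 597 lower. ABCG1 had no value above the floor as the mean of its probe sets or without marked probe sets.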
